A study of Mus musculus with 8 samples.

Results

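The Fc receptors examined here are 6 genes of the mouse: Fcgr1, Fcgr2b, Fcgr3 and Fcgr4, which bind the constant part of IgG at the cell surface, Fcer1g, the signalling chain that the activating receptors share, and Fcgrt, which encodes the neonatal Fc receptor FcRn. They were taken by gene symbol, and all 6 were present among 56748 listed genes and passed the filter on low counts, which 11222 genes did. Levels come from RNA sequencing of Ly6Chigh monocytes, the classical inflammatory monocytes, that were sorted by flow cytometry from mouse spleen. The 4 wild-type (WT) and the 4 Olfr2 knockout (KO) libraries all come from animals at day 7 after an aneurysm was induced, and no uninjured animals were analysed here. Olfr2 is an olfactory receptor gene, studied here for its part in monocyte recruitment in abdominal aortic aneurysm. The labels do not give the method of induction, the strain, age or sex of the animals, the kind of Olfr2 allele, or whether each library is 1 animal, and p-values therefore measure the spread between these libraries, which may be technical.

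Fc receptors let a phagocyte read antibody. Fcgr1, Fcgr3 and Fcgr4 proteins carry no signalling motif of their own in the mouse and pair with the Fcer1g chain, whose ITAM is phosphorylated by Src kinases and then recruits Syk, which leads to phagocytosis, the oxidative burst and cytokine release. Fcgr2b is the inhibitory receptor: its ITIM recruits the phosphatase SHIP1, the product of Inpp5d, and raises the threshold of the activating receptors. FcRn works inside the cell, where, bound to beta-2 microglobulin, it holds IgG and albumin in acidic endosomes and returns them to the surface in place of breakdown.

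Fcgr2b, Fcgr4, Fcgr3 and Fcer1g are neighbours on chromosome 1. On build GRCm38 with the GENCODE M21 annotation, Fcgr2b (ENSMUSG00000026656) lies at chr1:170958617-170976547 on the minus strand and Fcgr4 (ENSMUSG00000059089) at chr1:171018920-171029761 on the plus strand. Fcgr3 (ENSMUSG00000059498) follows at chr1:171051174-171064935 and Fcer1g (ENSMUSG00000058715) at chr1:171229572-171234365, both on the minus strand. Fcgr1 (ENSMUSG00000015947) lies apart at chr3:96282909-96293969, and Fcgrt (ENSMUSG00000003420) at chr7:45092990-45103851, both on the minus strand.

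The promoters of 5 of the genes are shown because the genes behave differently in these libraries: Fcgr2b and Fcgr3 had the most similar patterns, Fcgr4 varied most, Fcgrt had the smallest p for genotype, and Fcgr1 is known as a gene that interferon-gamma induces. Each line holds the 250 bases before the RefSeq transcript start on GRCm38.p6, written 5′ to 3′ along the gene, with matches to searched motifs in capitals.
Fcgr1, chr3:96293970-96294219, minus strand: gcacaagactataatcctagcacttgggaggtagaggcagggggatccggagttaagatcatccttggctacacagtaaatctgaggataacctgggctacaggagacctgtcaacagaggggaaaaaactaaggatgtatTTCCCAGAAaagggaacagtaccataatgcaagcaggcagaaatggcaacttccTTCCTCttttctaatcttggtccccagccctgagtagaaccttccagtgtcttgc
Fcgr2b, chr1:170976072-170976321, minus strand: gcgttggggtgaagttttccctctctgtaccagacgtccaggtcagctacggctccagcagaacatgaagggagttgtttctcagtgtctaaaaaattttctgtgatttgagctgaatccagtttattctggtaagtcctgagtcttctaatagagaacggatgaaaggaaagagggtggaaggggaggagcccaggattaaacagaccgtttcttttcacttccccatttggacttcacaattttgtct
Fcgr3, chr1:171059404-171059653, minus strand: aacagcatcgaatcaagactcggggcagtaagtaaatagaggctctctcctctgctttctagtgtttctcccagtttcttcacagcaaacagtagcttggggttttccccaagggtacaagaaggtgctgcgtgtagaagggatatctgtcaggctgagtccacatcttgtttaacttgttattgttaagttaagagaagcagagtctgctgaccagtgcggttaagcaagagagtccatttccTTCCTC
Fcgr4, chr1:171018676-171018925, plus strand: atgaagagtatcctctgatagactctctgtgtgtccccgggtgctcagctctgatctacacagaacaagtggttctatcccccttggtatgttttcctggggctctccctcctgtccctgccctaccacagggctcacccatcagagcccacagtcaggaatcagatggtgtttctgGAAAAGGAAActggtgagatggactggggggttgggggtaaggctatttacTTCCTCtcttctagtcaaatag
Fcgrt, chr7:45103823-45104072, minus strand: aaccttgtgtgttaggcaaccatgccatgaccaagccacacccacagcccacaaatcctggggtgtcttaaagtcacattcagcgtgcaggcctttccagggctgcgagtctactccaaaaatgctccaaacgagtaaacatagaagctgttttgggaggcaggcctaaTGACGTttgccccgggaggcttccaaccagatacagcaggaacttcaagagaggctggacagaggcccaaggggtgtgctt
Both strands were searched for GAGGAA, a core that the myeloid factor PU.1 binds, which reads TTCCTC where it lies on the other strand. It was found 55 bases before the start of Fcgr1, 6 before that of Fcgr3 and 22 before that of Fcgr4, each time on the opposite strand, and 23.3% of all 32851 RefSeq promoter windows of this length hold it. The Fcgr1 window also held TTCNNNGAA, the gamma-interferon activated site, 109 bases before the start, a motif in 7.02% of windows. Fcgr4 held GAAA, 2 bases of any kind and GAAA again, which resembles an interferon-stimulated response element, 73 bases before the start, a motif in 2.98% of windows. Fcgrt held TGACGT, the core of the cAMP response element, 81 bases before the start, a motif in 6.47% of windows. The windows of Fcgr2b and of Fcer1g, which is not printed, held none of these and no GC box (GGGCGG, in 32.7% of windows). The RefSeq starts of Fcgr3 and Fcgr2b lie inside the GENCODE genes, so that longer transcripts start elsewhere. Those of Fcgr4, Fcer1g and Fcgrt also lie inside, by far fewer bases. A lack of motifs holds for the searched window only. No binding was measured here, and a match is a match of letters only.

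The WT libraries held 16111725 to 19048245 counts each and the KO libraries 17258427 to 21728794, of which the 6 genes together took 0.635% to 0.84% of the counts. Olfr2 itself had 0 counts in all 8 libraries, which allows up to 0.139 to 0.186 CPM (counts scaled by the TMM library sizes; the limit covers counting error only), so that it could not check the genotype labels. The cells carried the classical monocyte markers, with Ly6c2 at 4572 ± 359.4 CPM in WT and 5194.8 ± 791 in KO (SD, n = 4 each) and Ccr2 at 1515.6 and 1814.7 CPM, both overlapping between genotypes. The 9 classical markers together summed to 14886.6 to 19800 CPM in WT and 26146.7 to 53416.1 in KO, mostly through Chil3, a chitinase-like protein gene that averaged 10796.8 and 28529.7 CPM (log2 difference 1.40 ± 0.33, edgeR adjusted p = 0.0786). Fn1 of the same list went the other way (-1.11 ± 0.25, adjusted p = 0.0583). Among other cells that bear Fc receptors, the B cell list had Pax5 at 0 in all 8 libraries but Ighm at 247.5 and Cd79b at 26.8 CPM on average in WT. The 7 basophil and mast cell markers summed to 1.47 to 5.9 CPM in WT and 2.06 to 6.11 in KO, nearly all Hdc, with Fcer1a, Ms4a2 and Gata2 at 0. KO 1 and KO 2 stood apart. Summed CPM of the 11 neutrophil markers was 2192.3 in KO 1 and 3362.4 in KO 2, against 790 in KO 3, 617.3 in KO 4 and 282.2 to 595.5 in WT, with 7 of the 11 averaging above 1 CPM, and values without KO 1 and KO 2 are given below where they matter. The numbers in the column names form a 1600 series (replicates 1 and 2 of each genotype) and a 1700 series (replicates 3 and 4), whose meaning is not stated.

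Per kilobase of exon, the signalling chain was far above every receptor. Fcer1g averaged 5049.1 ± 459 CPM per kilobase in WT and 5119 ± 355.9 in KO (SD, n = 4 each), and it ranked 7 to 13 among all tested genes with a length in the 8 libraries. Fcgr3 came next with 855.5 ± 183.3 in WT and 998.2 ± 72.8 in KO, followed by Fcgr2b with 133.5 ± 38 and 159.2 ± 25. Fcgr4 averaged 103.7 ± 60.8 and 120.3 ± 73.6, Fcgr1 80.1 ± 17.1 and 86.5 ± 8.37, and Fcgrt 43 ± 6.06 and 30.1 ± 3.83. Fcer1g exceeded Fcgr3, Fcgr3 exceeded Fcgr2b, and Fcgr1 exceeded Fcgrt in all 8 libraries. Neighbours in the middle did not differ beyond their spread: Fcgr2b exceeded Fcgr4 in 6 of 8 libraries and Fcgr4 exceeded Fcgr1 in 5 of 8. With the longest transcript as length in place of all exons, Fcgr2b averaged 218.1 in WT, above Fcgr4 in all 8 libraries, and the order of the means was the same.

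**Figure D1:**
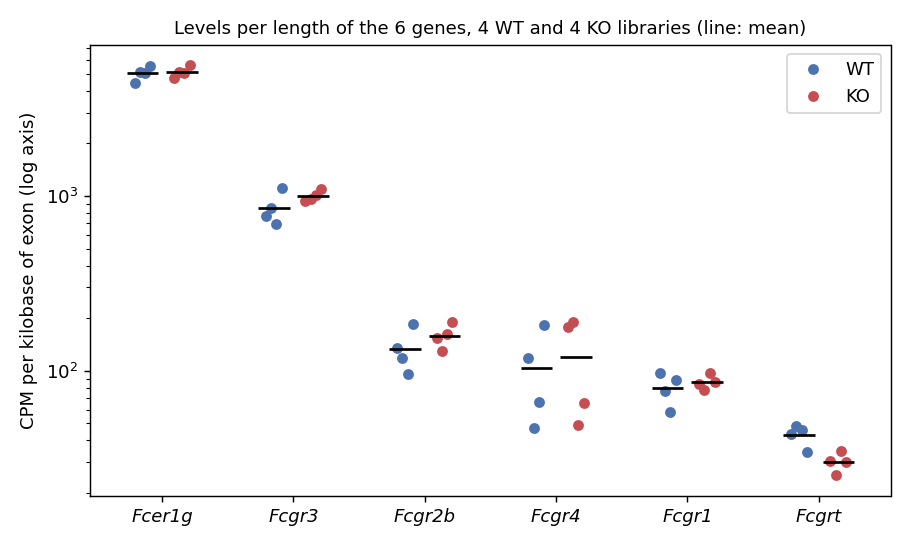
Level of each Fc receptor gene per kilobase of exon (vertical axis, CPM per kilobase, log axis) in 4 WT and 4 KO libraries, points for libraries and lines for means. Fcer1g averages 5049.1 and Fcgr3 855.5 in WT, while the points of Fcgr2b, Fcgr4 and Fcgr1 overlap.

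Between the genotypes, the Fc receptor genes showed no called difference. With edgeR's quasi-likelihood test and Benjamini-Hochberg adjustment at 0.05 over all tested genes, 0 of 6 members passed, where 1.06% of 11222 tested genes did, and the groups of 4 libraries were separate for 0 of 6, against 11.4% of tested genes. At an unadjusted p under 0.05, 1 of 6 (Fcgrt, lower) passed, where 20.9% of tested genes did in either direction and 12% as lower in KO. With the number series as covariate 0 of 6 passed, against 2.24% of tested genes. DESeq2 called 1 of 6 (Fcgrt), where it called 6.51% of 11828 genes, and limma-voom 0 of 6, where it called 0 of all genes. The log2 difference, KO minus WT, was positive for 5 and negative for 1, with a median of 0.16 beside 0.00 for all tested genes.

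Among the activating receptors, Fcgr1, the high-affinity IgG receptor, stood at 251, 198.3, 149.6 and 230.7 CPM in WT 1 to 4 and at 217.5, 201.1, 253 and 224.5 CPM in KO 1 to 4. The lowest library was WT 3, the other 7 lay within 198.3 to 253, and the genotypes overlapped. The means were 207.4 ± 44.2 and 224 ± 21.7 CPM (SD, n = 4 each), and the log2 difference was 0.11 ± 0.15 (SE, edgeR adjusted p = 0.713). Its 95% interval of -0.21 to 0.44 corresponds to KO levels of 0.862 to 1.35 times WT. Its sign turned on WT 3: without that library the log2 difference was -0.02.

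Fcgr3, the low-affinity activating receptor and the most abundant receptor of the family in these cells, stood at 1338.2, 1478.6, 1194.3 and 1929.7 CPM in WT 1 to 4 and at 1615.2, 1661.9, 1752.2 and 1902 CPM in KO 1 to 4. 3 WT libraries lay below all KO libraries, and WT 4 lay above them all. The means were 1485.2 ± 318.3 and 1732.8 ± 126.3 CPM (SD, n = 4 each), with a log2 difference of 0.22 ± 0.14 (SE, edgeR adjusted p = 0.394) and a 95% interval of -0.09 to 0.53. The data therefore allow KO levels between 0.941 and 1.45 times WT.

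Fcgr4, an activating receptor for IgG2a and IgG2b that is known for its high level on nonclassical monocytes, was the most variable of the 6. It stood at 148.3, 59.2, 83.4 and 229.8 CPM in WT 1 to 4 and at 223.2, 238.2, 61.3 and 82 CPM in KO 1 to 4. High and low libraries occurred in both genotypes, WT 1, WT 4, KO 1 and KO 2 on one side and WT 2, WT 3, KO 3 and KO 4 on the other, with a 4.02-fold spread from lowest to highest. The spread of Fcgr3 was 1.62-fold and that of Fcer1g 1.26-fold. Within genotypes the SD of log2 CPM was 0.93 for Fcgr4, against a median of 0.18 for tested genes of the same decile of mean level, and 99.3% of those genes had a smaller SD. The genotype means of 130.2 ± 76.3 and 151.2 ± 92.4 CPM (SD, n = 4 each) gave a log2 difference of 0.22 ± 0.62 (SE, edgeR adjusted p = 0.872). Its 95% interval reached from -1.26 to 1.69, that is, KO levels of 0.417 to 3.23 times WT. The interval thus held a difference of 2-fold in either direction.

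The inhibitory receptor Fcgr2b stood at 781.5, 681, 556.1 and 1072.7 CPM in WT 1 to 4 and at 893, 751.7, 938.6 and 1102.8 CPM in KO 1 to 4. WT 3 was lowest, WT 4 and KO 4 were highest, and the genotypes overlapped. The means of 772.8 ± 220.1 and 921.5 ± 144.7 CPM (SD, n = 4 each) gave a log2 difference of 0.25 ± 0.18 (SE, edgeR adjusted p = 0.452). The 95% interval was -0.15 to 0.65, or 0.904 to 1.57 times WT.

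The common chain Fcer1g was the steadiest, at 3890.5, 4452.8, 4439.6 and 4868.6 CPM in WT 1 to 4 and 4148.4, 4457.8, 4394.5 and 4895.4 CPM in KO 1 to 4. WT 1 and KO 1 were lowest, WT 4 and KO 4 were highest, and the genotypes overlapped. The means were 4412.9 ± 401.2 and 4474 ± 311 CPM (SD, n = 4 each), and the log2 difference was 0.02 ± 0.11 (SE, edgeR adjusted p = 0.936). The 95% interval of -0.22 to 0.26 allows KO levels of 0.857 to 1.2 times WT.

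Fcgrt, the gene of FcRn, differed most relative to its error. It stood at 91.9, 101.1, 96.4 and 72.1 CPM in WT 1 to 4 and at 64, 53.2, 72.9 and 63.2 CPM in KO 1 to 4. 3 WT libraries lay above all KO libraries, and the groups touched only where WT 4 (72.1 CPM) lay just below KO 3 (72.9 CPM). The means were 90.4 ± 12.7 and 63.3 ± 8.06 CPM (SD, n = 4 each), a change of -29.9%. The log2 difference of -0.51 ± 0.14 (SE, edgeR adjusted p = 0.0786) did not pass. The 95% interval, not adjusted for the number of genes, was -0.81 to -0.21. The estimate was negative in all 21 alternative fits, from -0.73 to -0.31, and 2 of them called it: the fit with no filter on low counts (adjusted p = 0.0233) and DESeq2 (adjusted p = 0.0357). Without KO 1 and KO 2 it was -0.40 ± 0.17 (edgeR adjusted p = 0.281). Like Fcgrt, the nonclassical monocyte markers were lower in KO: 10 of 10 had a negative difference, with 5 lower at an unadjusted p under 0.05 (12% of all tested genes). Their summed level was 332 to 394.6 CPM in WT and 228.6 to 302.1 in KO. 1 of the 10 passed, where 1.06% of all tested genes did. It was Pou2f2 (-3.76 ± 0.46, edgeR adjusted p = 0.017), at a low level of 1.88 CPM in WT and 0.133 in KO. The differences of Spn and Treml4 were smaller than their errors (-0.09 ± 0.20 and -0.14 ± 0.17). Nr4a1, a factor that nonclassical monocytes need, stood at 48.9, 49.7, 50.7 and 26.1 CPM in WT and 27.7, 16.9, 30.4 and 30.7 CPM in KO, with WT 4 low as for Fcgrt. The list did not share this WT 4 pattern. WT 4 was also the lowest WT library for Cx3cr1, Spn and Eno3 (28.8, 5.46 and 11.4 CPM). It was the highest for Itgal and Ace (40.2 and 9.99 CPM), and neither for Cd36, Treml4, Pou2f2 and Pglyrp1. The part of these markers in the Fcgrt difference was not tested. In bulk RNA, fewer cells that express a gene and less RNA per cell cannot be told apart.

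**Figure D2:**
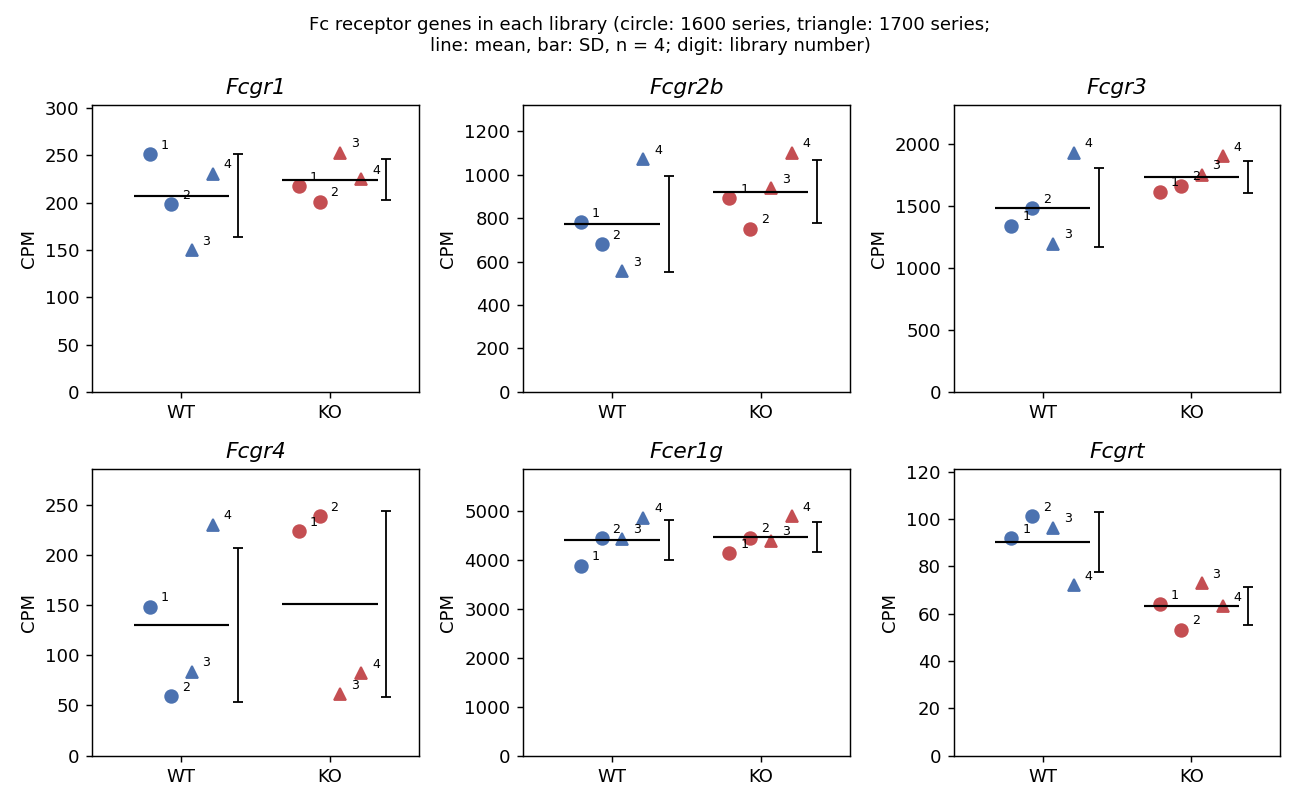
CPM of the 6 Fc receptor genes in each WT and KO library (points, numbered by replicate; circles for the 1600 series, triangles for the 1700 series), with mean and SD of 4 libraries. Fcgr4 splits into high and low libraries within both genotypes, and for Fcgrt WT 4 alone lies among the KO values.

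The column-number series split the libraries within genotypes, and Fcgr4 ran in opposite directions in them. In the 1600 series the means were 103.8 CPM in WT and 230.7 in KO, a ratio of 2.22, and in the 1700 series 156.6 and 71.6, a ratio of 0.457. In each series both KO libraries lay on 1 side of both WT libraries, on opposite sides in the 2 series, which was so for 10.9% of tested genes. The log2 differences were 1.15 ± 0.65 (SE, edgeR adjusted p = 0.412) and -1.13 ± 0.65 (adjusted p = 0.376), with 2 libraries per genotype in each. The interaction, that is, the difference between the 2, was -2.28 ± 0.92 (SE, edgeR adjusted p = 0.327) and did not pass. Of the 6 genes 0 passed within the 1600 series, where 1.85% of tested genes did, 0 within the 1700 series (1.38% of tested genes) and 0 in the interaction (0.784%).

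For the other members the 2 series lay closer together. Fcgrt was -0.72 ± 0.18 in the 1600 series (edgeR adjusted p = 0.0619) and -0.31 ± 0.18 in the 1700 series (adjusted p = 0.317), with an interaction of 0.41 ± 0.25 (adjusted p = 0.448). Fcgr3 was 0.22 ± 0.19 and 0.23 ± 0.19, Fcgr2b 0.17 ± 0.27 and 0.33 ± 0.27, and Fcer1g 0.04 ± 0.13 and 0.00 ± 0.13. Fcgr1 was -0.10 ± 0.20 in the 1600 series and 0.33 ± 0.20 in the 1700 series, with an interaction adjusted p of 0.485.

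**Figure D3:**
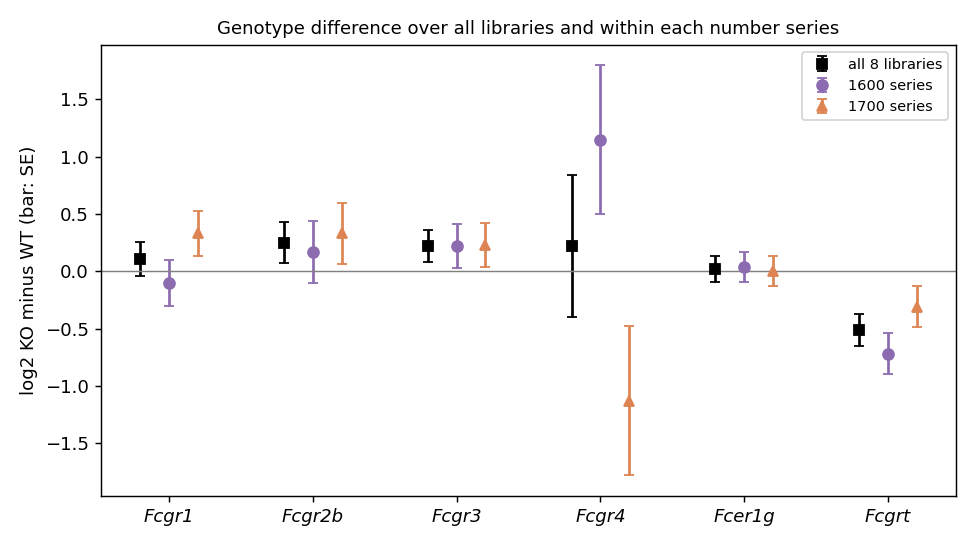
Log2 difference in CPM, KO minus WT (vertical axis), of each gene over all 8 libraries and within the 1600 and the 1700 number series, with SE bars from edgeR. Fcgr4 lies at 1.15 and -1.13 in the 2 series, and Fcgrt lies below 0 in both.

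Some markers of other cells ran with the libraries in which Fcgr4 was high or low. Summed CPM of the 7 conventional dendritic cell markers came to 204.5, 428.7, 308.7 and 216.8 for WT 1 to 4, and to 107, 83.7, 515.9 and 478.1 for KO 1 to 4. The libraries with high Fcgr4 had the low sums. This order was that of Cd209a, which made up most of the sum, a lectin that some monocytes also express, at 158.8, 382.2, 284.8 and 171.6 CPM in WT and 69.9, 51.2, 460.4 and 423 CPM in KO. Flt3, at 16.7, 13.7, 11.7 and 17.7 CPM in WT and 18, 15.8, 17.3 and 16.6 CPM in KO, did not share it, nor did Itgax, which lay between 1.46 and 3.9 CPM. In WT Flt3 and Itgax were higher in WT 1 and WT 4, as Fcgr4 was. Dpp4, at 24.7, 29.6, 10.4 and 24.2 CPM in WT and 16.1, 14.8, 35.5 and 35.2 CPM in KO, ran with Cd209a in KO only. 4 of these 7 markers averaged above 1 CPM and none was at 0 in all libraries. The 8 B cell markers summed to 192.6 to 372.2 CPM in WT and 205.2 to 363.1 in KO, most of it Ighm, and were also low in WT 1, WT 4, KO 1 and KO 2; 3 of the 8 averaged above 1 CPM and Pax5 was at 0. The summed level of the 10 nonclassical monocyte markers, all of which averaged above 1 CPM, did not follow Fcgr4. Vcan, alone of the classical monocyte list, split as Fcgr4 did, at 20.2, 6.77, 12.6 and 22 CPM in WT and 15.9, 20.1, 10.8 and 9.38 CPM in KO. So did C1qb, alone of the red pulp macrophage list, at 16, 11.5, 15.6 and 21.1 CPM in WT and 26.1, 27.6, 9.9 and 13.1 CPM in KO. Neutrophils also carry Fcgr4, and the 2 KO libraries with the highest neutrophil sums had 223.2 and 238.2 CPM of Fcgr4. Within WT the neutrophil sums were highest for WT 1 (595.5) and WT 4 (530.7), which had 148.3 and 229.8 CPM of Fcgr4. Mmp8 made up most of both sums, at 523.7 and 432.2 CPM. KO 3 and KO 4 had higher sums than WT 1 and WT 4, at 790 and 617.3 CPM, and Mmp8 at 637.9 and 514.6 CPM. Their Fcgr4 was nevertheless low, at 61.3 and 82 CPM, so that across both genotypes Fcgr4 did not follow the order of the sums. The KO 1 and KO 2 sums were mostly S100a8, at 795.6 and 1584.1 CPM, and S100a9, at 478.8 and 789.4 CPM. Csf3r of the same list went the other way among KO libraries. Its level was 29.3 and 31.8 CPM for replicates 1 and 2 but 45.5 and 42.3 CPM for replicates 3 and 4. Without KO 1 and KO 2 the genotype difference of Fcgr4 was -0.85 ± 0.61 (SE, edgeR adjusted p = 0.561). The part of these cell types in the Fcgr4 levels was not tested.

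The pattern over the 8 libraries was closest for Fcgr2b and Fcgr3. Likeness was taken as the root mean square difference of log2 CPM, each gene centred on its own mean, over 8 libraries that share their depth and preparation. It was 0.14 for Fcgr2b and Fcgr3, 0.18 for Fcgr3 and Fcer1g, 0.20 for Fcgr1 and Fcgr2b and 0.21 for Fcgr1 and Fcgr3. Fcgr4 lay 0.80 to 1.02 from each other member. Fcgr2b and Fcgr3 share stretches of sequence: 12.8% of 50-base windows of the longest Fcgr3 transcript also occur in Fcgr2b, and 4.75% of those of Fcgr2b in Fcgr3. With any other gene, 12.5% of the Fcgr2b windows were shared. For 100-base windows the shares were 3.53%, 1.28% and 6.79%. How the counting treated reads that match several genes is not given in the sources used here, and the part of shared reads in this likeness was not tested. The other 4 members had no shared window with any gene. The overlapping genes Gm38204, Gm26110 and Gm45669 had at most 2 counts over all libraries, and a microRNA gene within Fcgr3 was not analysed here.

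**Figure D4:**
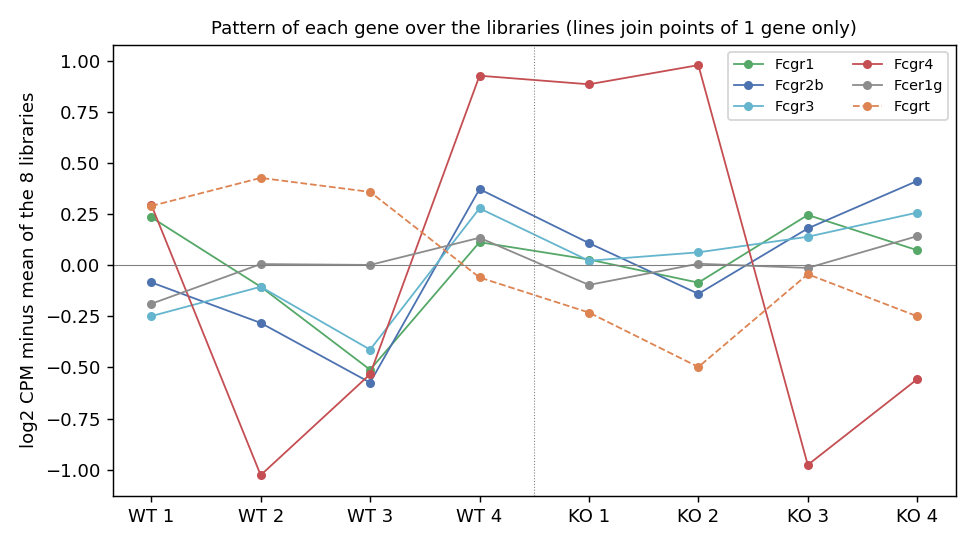
Log2 CPM of each gene minus its mean over the 8 libraries (vertical axis) in WT 1 to 4 and KO 1 to 4, with lines that join the points of 1 gene and imply no order. Fcgr4 swings by about 2 units between libraries, Fcgr2b and Fcgr3 run together, and Fcgrt lies higher in WT 1 to 3.

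Outside the family, near genes were sought among 5203 with a mean of at least 10 CPM, leaving out names of the Gm, Rik or accession kind. Nearest to Fcgr4 were Igfbp6 (0.28), which encodes a binding protein of insulin-like growth factors, the metallothionein gene Mt1 (0.31) and Cd93 (0.31). Cd93 is a surface glycoprotein gene of myeloid and endothelial cells. Igfbp6 stood at 18.9, 6.04, 8.92 and 37.4 CPM in WT 1 to 4 and at 23.8, 25, 9.02 and 13.7 CPM in KO 1 to 4, high and low in the same libraries as Fcgr4. The genes nearest to Fcgrt were the riboflavin transporter gene Slc52a2 (0.09), Acvrl1 (0.11), a receptor of the TGF-beta family, and the interferon regulatory factor gene Irf5 (0.12). Their log2 differences were -0.52, -0.56 and -0.33 (edgeR adjusted p = 0.11, 0.0805 and 0.187). Nearest to Fcgr1 was Irak4 (0.06), to Fcgr2b Ndufaf4 (0.08), to Fcgr3 Nsa2 (0.08) and to Fcer1g Sde2 (0.03). Genes with little spread have small distances by construction.

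The ratio of inhibitory to activating receptor transcripts was of similar size in both genotypes, and the values overlapped. Per kilobase, Fcgr2b divided by the sum of Fcgr1, Fcgr3 and Fcgr4 came to 0.137, 0.121, 0.118 and 0.134 for WT 1 to 4, and to 0.129, 0.106, 0.14 and 0.153 for KO 1 to 4. The KO values enclosed the WT values, with means of 0.128 ± 0.0094 and 0.132 ± 0.0199 (SD, n = 4 each). Fcer1g divided by the same sum was 4.52, 5.22, 6.25 and 4.03 in WT and 3.98, 4.16, 4.35 and 4.49 in KO, so that the chain exceeded its partner receptors in every library. Fcgr3 made up 78% to 87.8% of the activating sum, Fcgr1 6.34% to 9.83% and Fcgr4 4.22% to 15.5%. The Fcgr4 share was 12%, 4.83%, 8.18% and 13.2% in WT and 14.9%, 15.5%, 4.22% and 5.23% in KO.

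The chromosome 1 cluster from Fcgr2b to Fcer1g spans 275749 bases and holds 17 annotated genes, 8 of which were tested. Beside the 4 members these were the long noncoding RNA gene Gm10522, the cilia gene Cfap126, Sdhc, a subunit of succinate dehydrogenase, and Tomm40l, a mitochondrial import gene. Their log2 differences were 0.53 ± 0.57, -0.04 ± 0.22, 0.01 ± 0.14 and -0.39 ± 0.20 (SE, edgeR adjusted p = 0.624, 0.94, 0.962 and 0.286). Of the 8 genes 0 passed.

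The wider pathway gave a similar count. Of 98 genes in 10 lists of Fc receptor signalling, 79 were tested and 0 passed with edgeR (1.06% of all tested genes did), 38 with a positive and 41 with a negative difference and a median of -0.03. At an unadjusted p under 0.05 there were 15, or 19%, 2 higher and 13 lower in KO, against 20.9% of all tested genes. Limma-voom called 0 of them and 0 of all genes, and DESeq2 called 3 (Gab2, Cbl and Socs1, all lower), against 6.51% of all genes. With offsets for transcript length and GC content, 6 of the 79 (7.59%) had an unadjusted p under 0.05, against 17.5% of all genes. For the 15 genes the median log2 difference was -0.55 before and -0.23 after these offsets, and 4 of them kept an unadjusted p under 0.05. Groups were separate for 6 of the 79 (11.4% of all tested genes, 6.06% lower and 5.35% higher in KO), among them Vav3, Pik3cd, Pik3r1, Inpp5d and Spi1, all lower in KO. The genes of this and the following paragraphs that are not the most abundant of their list were named after their values were seen.

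Close to the receptors, Tyrobp, the other ITAM adaptor of myeloid cells, averaged 7185.5 and 7305.5 CPM with a log2 difference of 0.02 ± 0.15. Among the 7 tested Src, Syk and Tec kinases, Lyn was at 0.26 ± 0.18, while Syk, the kinase that docks on the Fcer1g ITAM, stood at 16.7, 11, 15.2 and 18.4 CPM in WT and 9.82, 9.96, 11.1 and 10.9 CPM in KO. WT 2 alone lay among the KO values of Syk. Its log2 difference of -0.55 ± 0.18 did not pass (edgeR adjusted p = 0.11), while without WT 2 it did (-0.68 ± 0.15, adjusted p = 0.0304) and the fit with offsets gave -0.23 ± 0.16 (adjusted p = 0.48). Btk of the same list went the other way, at 0.40 ± 0.18 (edgeR adjusted p = 0.233), and at 0.23 ± 0.16 with the offsets (adjusted p = 0.469). Syk and Btk were the 2 genes of this list with an unadjusted p under 0.05. The list had 4 positive and 3 negative differences and a median of 0.06.

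Downstream, 19 tested genes of signalling and phagocytosis had a median of -0.10, with 7 positive and 12 negative. The abundant GTPase genes Cdc42 and Rac1 were at 0.10 ± 0.10 and 0.00 ± 0.12. Of the 5 NADPH oxidase genes, which carry the oxidative burst, Cyba was at -0.26 ± 0.17 and Cybb at 0.31 ± 0.27, with a median of 0.10. The 5 tested receptors that also signal through Fcer1g had a median of 0.31, and among them Clec4e, the receptor Mincle, was at 0.47 ± 0.28 and Cd300c2 at -0.17 ± 0.13 (edgeR adjusted p = 0.364 and 0.474).

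Among 10 tested brakes of signalling, the median was -0.26, with 3 positive and 7 negative. The phosphatase gene Ptpn6 was at 0.04 ± 0.15 and the kinase gene Csk at -0.34 ± 0.17. Cbl, a ubiquitin ligase that marks activated receptors and Syk for breakdown, had the smallest p of all 79. It stood at 7.81, 4.27, 11.2 and 10.1 CPM in WT and 2.7, 3.75, 3.27 and 4.32 CPM in KO, where WT 2 lay just below KO 4. Its log2 difference was -1.24 ± 0.28 (SE, edgeR adjusted p = 0.0522), and it passed in 7 of the alternative fits, with upper-quartile scaling, no filter, DESeq2, the number series as covariate, without WT 2, without KO 4 and in the 1700 series alone. The fit with offsets gave -0.67 ± 0.21 (adjusted p = 0.145). Inpp5d, the gene of SHIP1, stood at 12.2, 10.4, 15.8 and 12.3 CPM in WT and 9.64, 10.3, 6.96 and 9.84 CPM in KO (-0.46 ± 0.19, adjusted p = 0.182; -0.23 ± 0.18 with the offsets). All WT values of Inpp5d lay above all KO values, with WT 2 and KO 2 nearly equal.

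The 8 tested inhibitory receptors with ITIMs had a median of 0.05, with Cd300a at -0.08 ± 0.12 and Clec12a at 0.02 ± 0.16. For FcRn, the partner chain B2m averaged 7530.1 ± 1028.4 and 8253.5 ± 1009.5 CPM (SD, n = 4 each), a log2 difference of 0.13 ± 0.13. The recycling gene Rab11a was at 0.09 ± 0.11, and 0 of 5 tested genes of this list had an unadjusted p under 0.05. Among 15 cytokine receptors and factors that set Fc receptor transcription the median was -0.22, with 4 positive and 11 negative. Ifngr1, which carries the interferon-gamma signal, was at 0.12 ± 0.15. Spi1, the gene of PU.1, stood at 542.2, 519, 549.3 and 556 CPM in WT and at 493.1, 362.8, 414.4 and 490.1 CPM in KO, all KO values below all WT values (-0.30 ± 0.12, edgeR adjusted p = 0.182). With the length and GC offsets the difference of Spi1 was 0.00 ± 0.11 (adjusted p = 0.994).

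**Figure D5:**
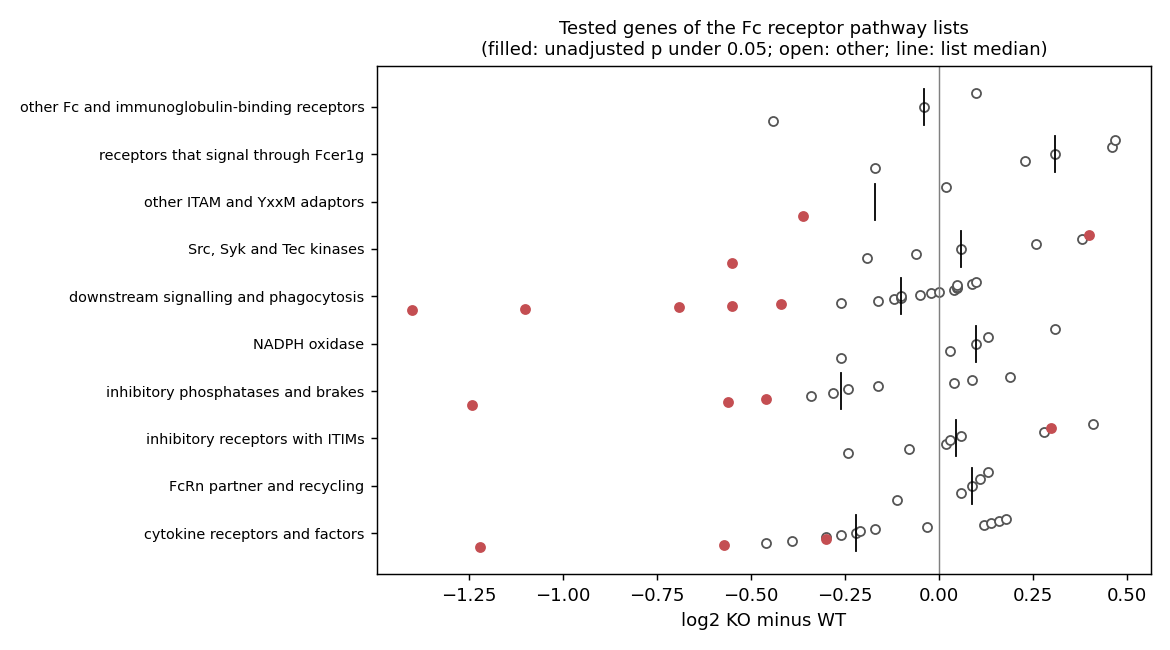
Log2 difference, KO minus WT (horizontal axis), of the 79 tested genes of 10 Fc receptor pathway lists (rows), filled where the unadjusted edgeR p was under 0.05, with a line at each list's median. The medians lie between -0.26 and 0.31, and 13 of the 15 filled points lie below 0.

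Other receptors for immunoglobulin were scarce. Of 13 listed, 3 were tested: Trim21, the cytosolic antibody receptor, at 17.2 ± 5.52 and 16.7 ± 3.29 CPM (SD, n = 4 each), Fcrl1 at 8.07 ± 1.85 and 8.67 ± 2.65 CPM, and Fcrlb. Fcer1a and Ms4a2, the ligand-binding and beta chains of the IgE receptor, the IgM receptor genes Fcmr and Fcamr, the polymeric immunoglobulin receptor gene Pigr, and Fcrl6 were at 0 in all 8 libraries. Fcer1g was thus abundant in cells where the ligand-binding chain of the IgE receptor was not detectable at this depth.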

How the data were processed

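Per the labels' protocols, RNA of sorted Ly6Chigh monocytes was primed with oligo-dT, converted by template switching (SMART-Seq v4) and amplified. The values are raw counts per gene, deposited for 8 libraries. The submitters' processing notes name the aligner HISAT2 2.0.5, the counter featureCounts 1.5.0-p3 and build GRCm38. Annotation release, strand, read length and multi-mapping settings: not given in the sources used here. Priming and amplification can favour transcripts of some lengths, and PCR reads are not independent molecules, so that floors (3 counts) cover counting error only.

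Libraries were grouped by labelled genotype. Libraries of 1 genotype differed beyond sampling noise (chi-square per degree of freedom 16.5 to 77.2), and each counted as 1 replicate. Counts were tested with edgeR 4.0.16 in R 4.3.3 (filterByExpr, TMM, robust quasi-likelihood, Benjamini-Hochberg at 0.05), and number series by a genotype-by-series model. Levels between genes use exon-union length from GENCODE M21, since the count table holds no length; the longest transcript was the alternative. Other alternatives were DESeq2 1.42.0, limma-voom (limma 3.58.1), filters, scalings, length and GC offsets (mgcv 1.9.3), the series as covariate, a replicate block and left-out libraries. The members and gene lists were chosen with earlier results of these data known. Named genes are the members, the 2 most abundant genes of each pathway or marker list and any called, the 3 genes nearest each member in pattern, and tested genes of the cluster; some are not reported here. Markers that are not the 2 most abundant of their list, among them Ccr2, Fn1, Pax5, Flt3, Itgax and Nr4a1, were named after their values were seen. The edgeR, limma-voom and DESeq2 fits were tested on simulated counts. Protein sequences were not used here.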

Additional observations from a re-analysis of the deposited data

Results flagged for a closer look

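Fcgr4 had opposite genotype differences in the 2 column-number series. In the 1600 series both KO libraries lay above both WT libraries, and in the 1700 series both lay below. Such a separation in opposite directions was found for 10.9% of the 11222 tested genes and is not particular to Fcgr4. The interaction was -2.28 ± 0.92 on the log2 scale (SE, edgeR adjusted p = 0.327), so that the test of the difference itself did not pass. Of 22 groups of 4 values examined for a library far from the others, 0 had one, where chance gives about 1.1.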

How the results depend on the processing

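Fcgrt passed in 2 of 21 alternatives, without a filter on low counts (-0.51, edgeR adjusted p = 0.0233) and with DESeq2 (-0.50, adjusted p = 0.0357), and its adjusted p lay between 0.0233 and 0.376 over all of them; with length and GC offsets it was -0.38 (adjusted p = 0.169). None of the other 5 members passed in any of them. Genes called over the whole table, 119 by the main test, numbered 742 without the filter, 770 with DESeq2, 0 with limma-voom (2371 at an unadjusted p under 0.05), 251 with the series as covariate, 1 with offsets, 7 without KO 1 and KO 2, and 0 to 515 with 1 library left out (515 without WT 2, 0 without WT 1, WT 3, KO 2 or KO 3). Called pathway genes, 0 by the main test, numbered 1 with upper-quartile scaling, 3 without the filter, 3 with DESeq2, 1 with the series as covariate, 1 in each series alone and 0 to 3 with 1 library left out (3 without WT 2). Interaction calls, 88 by the main test, were 645 without the filter, 418 with DESeq2, 57 with limma-voom, 8 with offsets and 3 to 628 with 1 library left out (628 without WT 4, 3 without KO 4). The Fcgr2b ratio was 0.168 in WT and 0.174 in KO with the longest transcript. The same replicate number did not pair the libraries (r = -0.01, -0.03, -0.05 and 0.09); with the replicate block 244 genes were called and Fcgrt was -0.51 (adjusted p = 0.133), and with block and offsets together 182 genes were called. Of the signs that turned, none called, Fcgr1 was -0.11 in the 1600 series alone and -0.02 to 0.22 with 1 library left out. Fcgr4 was 0.00 with block and offsets, -0.85 without KO 1 and KO 2, -1.12 in the 1700 series alone and -0.09 to 0.64 with 1 library left out. Fcer1g was -0.02 with upper-quartile scaling, -0.04 with offsets, -0.04 with block and offsets, 0.00 in the 1700 series alone and -0.04 to 0.07 with 1 library left out. Interactions turned for Fcgr2b (-0.05 with offsets, -0.24 to 0.71 with 1 library left out), Fcgr3 (-0.04 with upper-quartile scaling, 0.00 with the stricter filter, -0.29 to 0.40) and Fcer1g (0.01 without the filter, 0.40 with offsets, -0.15 to 0.05). The causes were not tested, and 2 libraries per genotype and series limit every interaction.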
